A study of Fukomys damarensis and Heterocephalus glaber and Cavia porcellus with 28 samples.

Results

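Heart and liver of the Damaraland mole-rat (Fukomys damarensis), a social subterranean rodent of southern Africa, were compared over all genes by RNA sequencing, with ribosomal RNA removed from the total RNA beforehand. The comparison uses the 5 heart and the 5 liver libraries of this species, 10 of the 28 libraries of the study, and all 13928 genes of its tables. The other 18 libraries come from naked mole-rat, guinea pig and mouse and serve here only to show where the tissue difference of the Damaraland mole-rat departs. The animals were untreated as far as the labels say, and no strain or genotype is given. The 5 hearts came from males labelled 36 months (2 animals) or 48 months (3 animals). The livers came from 3 males labelled 36 months, 1 male labelled 48 months and 1 female labelled 48 months. Of the 6 animals, 4 gave both tissues, and 1 of these 4 carries different age labels in heart and liver. The other species were males labelled 13 to 17 months (naked mole-rat, 3 hearts and 4 livers), 2.3 months (guinea pig, 3 and 3) and 2 months (mouse, 3 and 2), so species and age cannot be told apart. The labels do not say which part of the heart or which lobe of the liver was taken.

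The adult heart is built mainly of cardiomyocytes, which contract through sarcomeres, cycle calcium through the sarcoplasmic reticulum at each beat and draw most of their energy from oxidation in mitochondria. The liver is built mainly of hepatocytes, which secrete most plasma proteins and lipoproteins, make bile acids and urea, break down amino acids and foreign compounds, and release glucose from glycogen and by gluconeogenesis. Many steps of glucose and lipid metabolism are carried out by related enzymes of which one form is typical of muscle and another of liver. In whole tissue, fewer cells of a type and less RNA per cell cannot be told apart.

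Each heart library held between 8551766 and 22024715 recovered reads and each liver library between 11704633 and 18044619. Values below are scaled reads, meaning recovered reads divided by a factor that puts the 10 libraries on one scale, and differences are heart minus liver on the log2(scaled reads + 1) scale, so a difference of 1 is a doubling for a gene well above 1 read. Scaled reads are not divided by gene length, so levels are compared between libraries and not between genes. The 2 tissues separated by their defining markers. The 6 cardiomyocyte markers (Myh6, Actc1, Tnnt2, Tnni3, Ryr2 and Myl2) summed to 1339730 to 1965650 scaled reads in heart and to 1982 to 4051 in liver. The 6 hepatocyte markers (Alb, Ttr, Fgb, Apoa1, Cps1 and Tat) summed to 1747990 to 2537910 in liver and to 3336 to 6780 in heart. Rank correlations across genes were 0.943 to 0.982 between hearts, 0.952 to 0.985 between livers and 0.556 to 0.606 between a heart and a liver.

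A large share of genes differed between the tissues, in near equal numbers in each direction. Of 11371 genes with a mean of at least 10 scaled reads, 5429 (47.7%) were called, by limma at an adjusted p under 0.05 and a difference of at least 1. Of these, 2688 (23.6% of genes tested) were higher in heart and 2741 (24.1%) higher in liver, and the median difference over all genes tested was 0.01. A difference of at least 8-fold was found for 919 genes higher in heart and 968 higher in liver, and one of at least 64-fold for 244 and 332. The 5 hearts and 5 livers did not overlap in 6257 genes tested (55.0%). The genes called higher in heart held 57.2% to 61.2% of all reads of the hearts, and those called higher in liver held 64.8% to 69.2% of all reads of the livers. Scaling by total reads moved the median of all genes to 0.27 and the calls to 3287 higher in heart and 2287 higher in liver, so small differences shared by many genes depend on the scaling. The 2557 genes not tested had fewer reads. A gene absent from one tissue passed this limit through the other and had to differ, and with at least 10 scaled reads required in each tissue 4412 of 10257 genes were called. The 26 gene lists below name 657 genes, of which 607 were in the tables and 596 were tested.

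**Figure D1:**
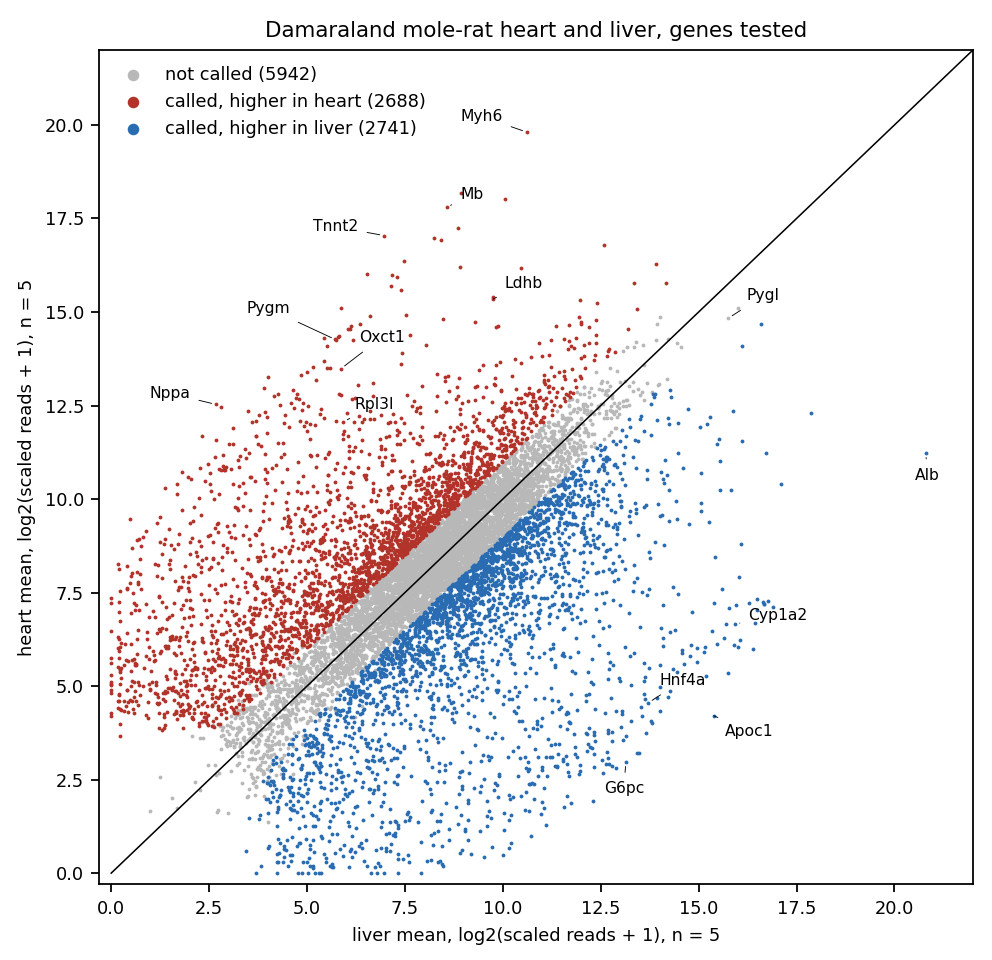
Mean log2(scaled reads + 1) of 5 livers (x axis) and 5 hearts (y axis) for the 11371 genes tested, 1 point a gene, with the diagonal marking equal levels. The 2688 genes called higher in heart (red) and the 2741 called higher in liver (blue) lie on both sides of a band of genes not called (grey), with Tnnt2 and Nppa far above it, Apoc1 and G6pc far below it, and Pygl close to it.

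Among genes with at least 1000 scaled reads in the higher tissue, those of the contractile apparatus gave the widest differences toward heart. Tnnt2, cardiac troponin T, which ties tropomyosin to the calcium switch of the thin filament, had 68955, 156020, 212104, 107379 and 182992 scaled reads in the 5 hearts, given here and below in the order of their replicate numbers, and 171, 174, 84.1, 116 and 103 in the 5 livers. The lowest heart stood far above the highest liver, a 1078-fold difference (difference 10.07, SE 0.30, adjusted p = 3.17e-12). Nppa, which encodes atrial natriuretic peptide, a hormone that lowers blood volume, had 1581, 8877, 2523, 11072 and 18393 in heart and 7.8, 7.4, 3.3, 4.9 and 4.7 in liver (difference 9.85, SE 0.56, adjusted p = 1.74e-09). Hearts differed from each other in Nppa by more than in any other of the 10 genes with the widest differences, with 2 low and 3 high libraries. Myh6, the alpha myosin heavy chain, had 739898, 910148, 1006160, 918976 and 1052080 in heart and 2176, 2227, 1081, 1361 and 1308 in liver, a 588-fold difference (difference 9.20, SE 0.24, adjusted p = 1.42e-12), and took 5.97% to 8.05% of the reads of a heart. Mb, the oxygen store myoglobin, had 212445, 317212, 260051, 200013 and 173737 in heart and 554, 588, 258, 314 and 293 in liver (difference 9.23, SE 0.26, adjusted p = 1.91e-12). The other 6 were Dusp27, Myom2, Tnnt1, Nexn, Myl2 and Mybpc3, a pseudophosphatase of striated muscle, an M-band protein, slow skeletal troponin T, an actin filament protein, the ventricular regulatory light chain and cardiac myosin-binding protein C, with differences of 9.23 to 9.65. Tnnt1 is known from slow skeletal muscle, and here it had 1904, 4910.4, 3275, 3107 and 4158 in heart against 3.9, 8.5, 3.3, 2.5 and 3.5 in liver.

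Toward liver, with the same limit of 1000 scaled reads, the widest differences belonged to lipoprotein, steroid, clotting, complement and glucose genes. Apoc1, an apolipoprotein that inhibits lipoprotein lipase, had 39622, 46815, 40332, 56511 and 34239 scaled reads in the 5 livers and 45.4, 52.0, 11.3, 1.8 and 24.4 in the 5 hearts, a 2321-fold difference (difference -11.18, SE 0.62, adjusted p = 1.38e-09). Its highest liver value was 1.65 times the lowest, while the hearts, at 52 scaled reads or fewer, spread widely. Apoa4 and Apoc3, on the same kind of particle, differed by -10.40 and -10.39. Akr1d1, which reduces the steroid ring in bile acid synthesis, had 5456, 5119.6, 4306, 6222 and 4207 in liver and 5.9, 8.5, 1.3, 0 and 4.6 in heart (difference -10.35, SE 0.49, adjusted p = 2.82e-10). G6pc, the catalytic subunit that releases free glucose as the last step of gluconeogenesis, had 16200.5, 5956, 11942, 6367 and 8200 in liver and 10.9, 19.6, 6.3, 0.9 and 7.6 in heart (difference -10.17, SE 0.51, adjusted p = 4.64e-10). All livers exceeded all hearts in both genes, and the highest liver had 2.72 times the G6pc of the lowest. F12 (coagulation factor XII), Hsd17b2 (which inactivates sex steroids), C8a (a complement pore subunit), Hrg (histidine-rich glycoprotein) and Spp2 (a secreted phosphoprotein) differed by -9.94 to -10.27.

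The RNA of each tissue's defining cell was not at 0 in the other tissue. Summed cardiomyocyte markers in the 5 livers were 0.250%, 0.250%, 0.122%, 0.154% and 0.149% of their heart mean. Hepatocyte markers in the 5 hearts were 0.193%, 0.310%, 0.174%, 0.160% and 0.326% of their liver mean. Without Apoa1, the hepatocyte marker with the smallest difference, they were 0.122%, 0.233%, 0.0845%, 0.0869% and 0.247%. The 2 highest livers and the 2 highest hearts came from the same 2 animals. Among genes with at least 1000 scaled reads in the higher tissue, 2 of 879 heart genes and 14 of 1096 liver genes fell below 0.1% in the other tissue. These levels lie beside every low value given here for a gene of the opposite tissue, and their part in those values was not tested.

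**Figure D2:**
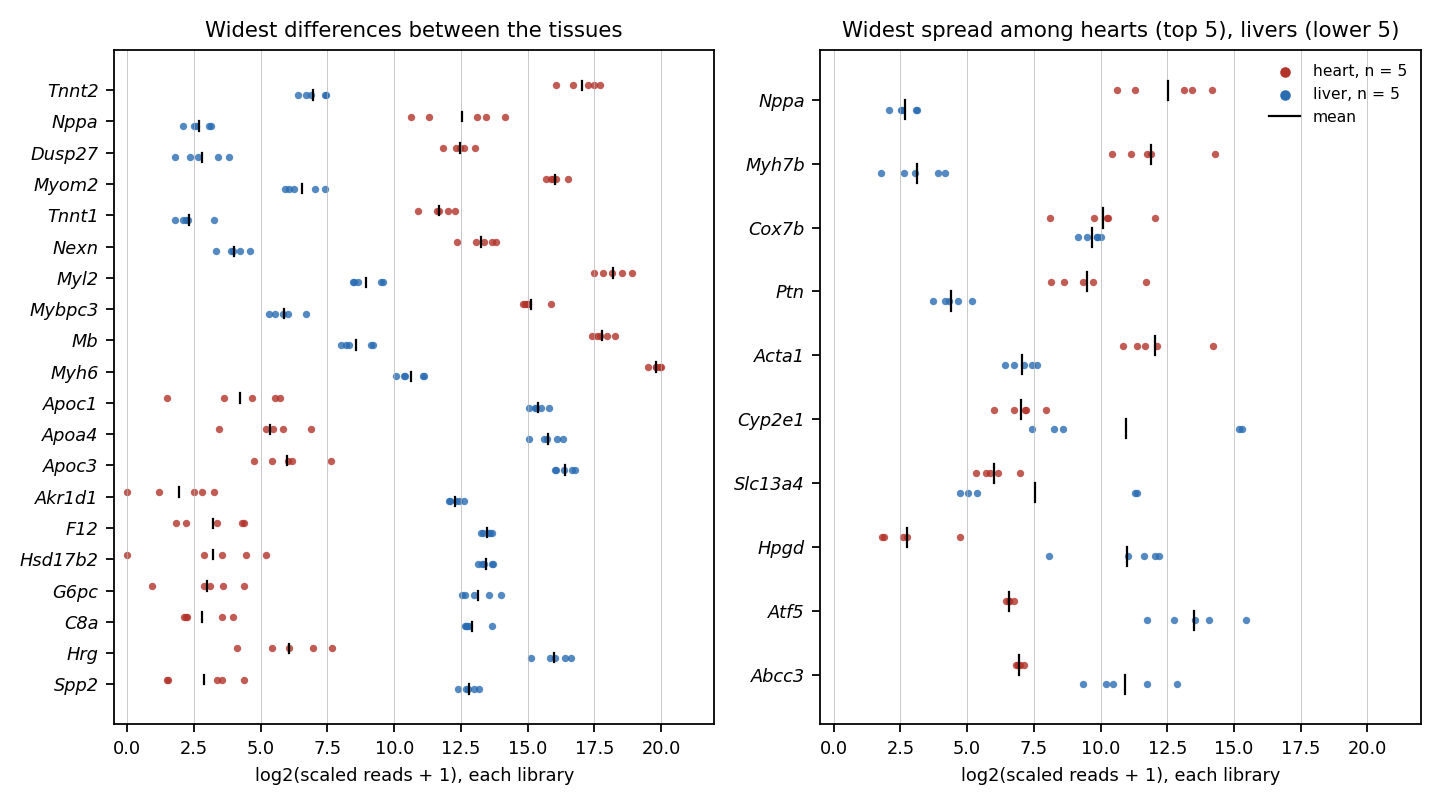
Log2(scaled reads + 1) of each library, hearts in red and livers in blue, 5 points each, with the mean as a black bar. Left, the 10 genes with the widest difference toward heart and the 10 toward liver among genes with a mean of at least 1000 scaled reads in the higher tissue, in which no heart overlaps a liver. Right, the 5 genes with the widest spread (SD of the log2 values) among hearts and the 5 among livers, of those with a mean of at least 1000 scaled reads in that tissue, where 3 livers have Cyp2e1 near the level of the hearts.

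Sarcomere genes were higher in heart without exception among the 18 tested members of the list, with differences from 5.61 (Myl4, the atrial essential light chain) to 10.07 and a median of 8.53. Titin (Ttn, 8.51), alpha-actinin 2 (Actn2, 8.55), cardiac actin (Actc1, 8.39) and troponin I (Tnni3, 8.50) lay close to that median. Myh7, the slow beta myosin heavy chain, had 136674, 463157, 195373, 409509 and 256351 in heart, the highest heart being 3.39 times the lowest, and 1350.4, 1208, 860.1, 1134 and 816 in liver (difference 7.97, SE 0.31, adjusted p = 3.67e-11). Myh6 and Myh7 are near-identical over long stretches, as are the actin genes, so reads may be split between such copies. Of 12 genes of the intercalated disc, the junction between cardiomyocytes, 8 were called higher in heart and none higher in liver, with a median of 3.09. Scaling by total reads gave 10 and none. Xirp2, an actin-binding repeat protein, differed by 8.36, the intermediate filament gene Des (desmin) by 6.46 and the gap junction gene Gja5 by 5.20. The 4 not called in the main fit were the adhesion genes Dsc2 (-0.23), Jup (0.36), Cdh2 (0.75) and Dsg2 (0.98).

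Calcium handling followed the contractile genes, with 11 of 12 genes called higher in heart, none higher in liver and a median of 6.68. Pln, which encodes phospholamban, the brake on the calcium pump, had 78409.6, 65949, 66904, 39796 and 71486 in heart and 253, 203, 114, 99.7 and 165 in liver (difference 8.63, SE 0.26, adjusted p = 3.42e-12). Casq2, the calcium buffer of the sarcoplasmic reticulum, differed by 8.55, and Ryr2, its release channel, by 8.20. The pump itself, Atp2a2, differed by 4.22, less than its regulator, and Asph was the gene not called (0.51). Among 12 cardiac ion channel genes 11 were higher in heart, with a median of 4.80. The potassium channels Kcnj5 and Kcnh2 differed by 7.98 and 7.76. Kcnip2, an accessory subunit, was not called (0.44).

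Transcription factors divided the same way. All 11 cardiac factors tested were higher in heart (median 3.65) and all 16 hepatocyte factors were higher in liver (median -6.50, with 15 called under scaling by total reads). Nkx2-5, a homeobox factor of the heart field, had 563, 801, 871, 342 and 1303 scaled reads in heart, and 2 reads were found over all 5 livers, a ratio of 1786 (exact Poisson 95% interval 494 to 14745, counting error only). Irx4, a ventricular homeobox factor, differed by 8.45 and Tbx5, a T-box factor, by 8.19. Gata4, at the low end of the list, differed by 1.09. Hnf4a, the nuclear receptor at the centre of the hepatocyte network, had 12980.3, 13966, 13061, 14783 and 12615 in liver and 21.0, 136, 11.9, 7.2 and 21.4 in heart (difference -9.16, SE 0.55, adjusted p = 3.16e-09). The highest liver was 1.17 times the lowest, and the second heart was the highest heart. Onecut2 differed by -8.55. Foxa2, a pioneer factor, had 485, 250.0, 349.6, 386 and 352 in liver, and 1 read was found over all 5 hearts, a ratio of 2087 (interval 375 to 82427). Ppara, which drives fatty acid oxidation genes in both organs, was at the end of this list nearest to heart (-1.06).

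Genes of secreted liver products were higher in liver. All 22 plasma protein genes tested were called higher in liver, with a median of -9.24. Alb (albumin) had 1715800, 1989790, 1707610, 2246980 and 1556400 in the livers and 2193, 3974, 1413, 1434 and 4486 in the hearts, and took 11.2% to 12.9% of the reads of a liver. The thyroxine carrier Ttr and the phospholipid-binding Apoh differed by -9.79 and -9.81. Lrg1, which granulocytes and endothelium also make, differed by -1.59, and the next smallest difference was that of Cp, ceruloplasmin (-7.02). All 29 complement and coagulation genes were higher in liver (median -8.43), from Masp1 (-2.51) to F12 (-10.27). C8b, which pairs with C8a in the membrane attack complex, had 3816, 10758, 7839, 20135 and 7421 in liver, with the fourth liver 5.28 times the first, and 15.1, 17.9, 5.6, 6.3 and 13.8 in heart (difference -9.53, SE 0.41, adjusted p = 9.17e-11). Of 17 apolipoprotein and lipoprotein genes 16 were higher in liver (median -8.34). Pltp, the phospholipid transfer protein, was not called (-0.72), and Apoe and Apoa1 were among the smaller differences (-5.58 and -4.35). Apoa1 kept 1509, 1687, 1895, 1558 and 1728 scaled reads in the 5 hearts, the narrowest range among the hepatocyte markers there.

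The machinery that moves proteins into and through the endoplasmic reticulum was also higher in liver, by less. Of 26 genes of this secretory list 21 were called (18 under scaling by total reads), none higher in heart, with a median of -1.62. Mcfd2, a cargo receptor subunit for clotting factors, differed by -3.12, and the disulfide isomerases P4hb and Pdia4 by -3.10 and -3.07. Sec61g (0.02) and Sec22b (0.39) were among the 5 not called.

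Amino acid and nitrogen metabolism lay on the liver side. All 24 genes of amino acid breakdown were higher in liver, with a median of -8.58, led by Uroc1, the second enzyme of histidine breakdown, Dpys, of pyrimidine breakdown, and Agxt, which detoxifies glyoxylate (-9.72, -9.60 and -9.50). Of 10 genes of the urea cycle and its supply 9 were higher in liver (median -4.53). Arg1, which releases urea from arginine, had 33781, 28444, 27133, 28928 and 23089.8 in liver and 42.0, 124, 28.8, 47.5 and 71.8 in heart (difference -8.96, SE 0.30, adjusted p = 9.02e-12). The glutaminase Gls2 and the carbamoyl transferase Otc differed by -8.55 and -8.34. Glul, which fixes ammonia into glutamine in both tissues, was not called (-0.02).

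Bile acid synthesis and transport had 11 of 12 genes higher in liver and a median of -7.33. Slc27a5, which activates bile acids, and Abcc2, an exporter of the canalicular membrane, differed by -9.34 and -8.77, and Cyp7a1, the rate-limiting enzyme of the classic pathway, by -6.85. The exception was Cyp7b1, the oxysterol hydroxylase of the alternative pathway. It had 156, 109, 105, 130.0 and 125 in heart and 40.1, 32.8, 21.2, 33.2 and 27.1 in liver, so every heart was above every liver (difference 2.00, SE 0.23, adjusted p = 3.66e-06). Of 17 genes of foreign compound metabolism 14 were higher in liver, 1 higher in heart and 2 not called (median -3.94). The cytochromes Cyp1a2 and Cyp1a1 differed by -9.28 and -8.73 and the monooxygenase Fmo5 by -6.71. Tpmt, which methylates thiopurines, ran the other way, with 68.9, 71.6, 72.7, 56.5 and 58.1 in heart and 2.6, 8.5, 8.2, 6.2 and 29.5 in liver (difference 2.84, SE 0.46, adjusted p = 9.21e-05).

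Energy metabolism was split between the tissues by pathway. Of 19 glycolysis genes 15 were higher in heart and none in liver, with a median of 3.05. The insulin-responsive glucose carrier Slc2a4 had 5589.9, 6268, 5096, 4599 and 3426 in heart and 18.1, 18.0, 9.8, 11.1 and 9.4 in liver (difference 8.47, SE 0.23, adjusted p = 1.64e-12), and hexokinase 2 (Hk2) and muscle phosphofructokinase (Pfkm) differed by 7.62 and 7.40. Eno1, Pfkl, Slc16a1 and Gpi1 were not called. Of 17 genes of gluconeogenesis, fructose and hepatic glycogen metabolism 15 were higher in liver and none in heart (median -6.06), with Pck1, the cytosolic phosphoenolpyruvate carboxykinase, at -9.23. The 2 not called both act on glycogen, Pygl (-0.93) and Ppp1r3c (0.40).

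Fatty acid oxidation, which both organs use, had 9 genes higher in heart, 7 higher in liver and 7 not called, with a median of 0.47. These calls were 39.1% and 30.4% of the list, beside 23.6% and 24.1% of all genes tested. Scaling by total reads gave 10 and 5. Fabp3, the cytosolic fatty acid carrier of muscle, had 24514, 31631, 30705, 15842 and 10618 in heart and 64.6, 108, 42.5, 40.6 and 42.5 in liver (difference 8.54, SE 0.33, adjusted p = 3.57e-11), and Cpt1b, the muscle form of the enzyme that admits fatty acids to mitochondria, differed by 8.07. The widest difference toward liver was that of Ehhadh (-5.17), an enzyme of peroxisomes. Of 5 genes of ketone bodies 1 was higher in heart and 2 in liver, a list too short to set beside those shares. Its median of -0.20 changed sign under 2 other scalings. Oxct1, which is needed to use ketone bodies, had 12981, 14730.5, 13071, 11169 and 7111 in heart against 91.7, 60.4, 60.4, 49.2 and 37.8 in liver (difference 7.62). The tricarboxylic acid cycle and its pyruvate entry had 15 of 20 genes higher in heart (median 1.96), among them Idh3a (4.40) and Dlat (3.13). Pdk4, which shuts pyruvate entry, was higher in liver, with 3963, 2631, 1839, 6403 and 3305 there and 352, 363, 305, 902 and 903 in heart (difference -2.73, SE 0.37, adjusted p = 1.63e-05), and Suclg2 was the other gene called toward liver (-1.26).

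Lipid synthesis had 21 of 24 genes higher in liver and a median of -3.15. Elovl6, a fatty acid elongase, and Thrsp, a regulator of fatty acid synthesis, differed by -7.83 and -7.09. Acacb, the acetyl-CoA carboxylase at the mitochondrial surface, whose product blocks fatty acid entry, was higher in heart, with 4995, 5218, 5877, 6836 and 4226 there and 33.6, 27.5, 29.4, 8.6 and 76.7 in liver (difference 7.50, SE 0.40, adjusted p = 9.43e-10). Its cytosolic relative Acaca was not called (0.72). In the creatine and adenylate list 5 of 10 genes were higher in heart and 3 in liver (median 0.87), beside 23.6% and 24.1% of all genes tested. Creatine kinases Ckm and Ckmt2 and the creatine carrier Slc6a8 differed by 8.74, 7.93 and 4.94, and Ak1, adenylate kinase 1, by 8.24. The enzymes that make creatine, Gatm (-2.45) and Gamt (-3.10), and the mitochondrial kinase Ak4 (-4.34) were higher in liver. Among 5 genes of natriuretic peptides, the activating protease Corin (6.32) and the clearance receptor Npr3 (2.56) were higher in heart beside Nppa, and the receptor Npr2 was higher in liver (-2.82).

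**Figure D3:**
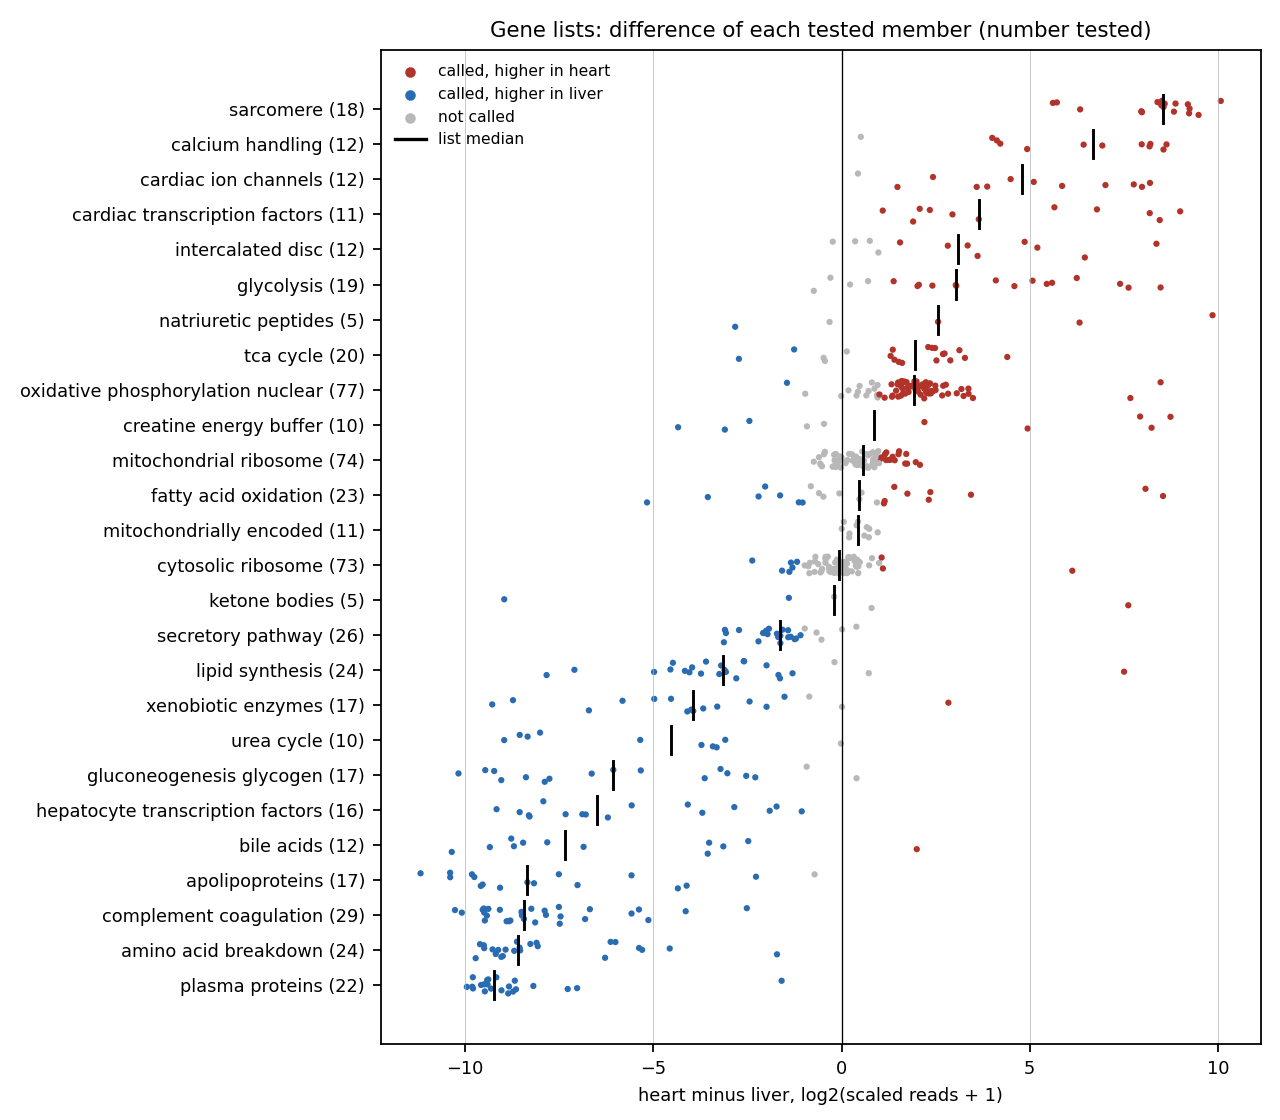
Heart minus liver on the log2(scaled reads + 1) scale for each tested member of 26 gene lists, 1 point a gene, red where called higher in heart, blue where called higher in liver and grey where not called, with the list median as a black bar. Sarcomere genes have the highest median (8.53) and plasma proteins the lowest (-9.24), and the lists of fatty acid oxidation, ketone bodies and creatine hold genes on both sides.

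Nuclear genes of oxidative phosphorylation were higher in heart in 62 of 77 cases and higher in liver in 1, against 23.6% and 24.1% of all genes tested, with a median of 1.94. Apart from Cox8b (8.48) and Cox7a1 (7.67), muscle forms of complex IV subunits, the differences toward heart stayed at or below that of cytochrome c (Cycs, 3.49). Cox6a1, the subunit form found outside striated muscle, was higher in liver, with 3113, 3428, 3312, 3753 and 1879.5 there and 737, 1228, 1804, 734 and 1369 in heart (difference -1.45, SE 0.26, adjusted p = 0.000223). None of the 11 mitochondrially encoded genes tested was called in either direction, with differences from 0.01 to 0.96, and these genes made up 0.00339% to 0.0279% of the reads of the 10 Damaraland libraries. In the 18 libraries of the other species they made up 2.88% to 26.9%. How reads of these genes were assigned in each species is not given in the sources used here, and the absence of calls rests on few reads. Cytosolic ribosomal proteins had 3 of 73 genes higher in heart and 6 higher in liver, well below the share of all genes, with a median of -0.07 whose sign changed under 3 of the other scalings. The exception in size was Rpl3l, a form of Rpl3 restricted to striated muscle, which had 3595, 5695, 5290.5, 3772 and 3447 in heart and 87.9, 81.6, 71.9, 30.8 and 48.4 in liver (difference 6.13, SE 0.27, adjusted p = 1.23e-10), while Rpl3 itself was higher in liver (-1.30). Rps27l differed by -2.37. Rpl41 was called (difference -1.58, SE 0.63, adjusted p = 0.0393), but its hearts (83.2, 10.2, 14.4, 2.7 and 15.3) and livers (49.1, 44.5, 32.7, 76.3 and 34.2) overlapped and the call was lost when any of 7 single libraries (hearts 2 to 5 or livers 1, 2 and 4) was left out (differences -1.06 to -1.59), or with the replicate block by animal (-0.88, adjusted p = 0.188). Mitochondrial ribosomal proteins had 16 of 74 genes higher in heart, 21.6% beside 23.6% of all genes tested and so near the background, and none in liver (31 and none under scaling by total reads, where 3287 of 11387 genes were higher in heart), with a median of 0.58, led by Mrpl15, Mrps26 and Mrpl42 (2.08, 1.97 and 1.74).

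Pairs of related genes, with a form listed as muscle-type and a form listed as liver-type, were read side by side. These names are only those of the list, and for Ldha, Pgam1 and Mat2a they do not mark a form typical of that tissue. Both forms could be tested in 14 of the 18 pairs reported. The muscle form had the more positive difference in all 14 and was called higher in heart in 13, the exception being Mat2a (difference 0.84, SE 0.32, adjusted p = 0.0302, below the size threshold, but 1.07 and called without the fifth heart). Mat2a was also called under scaling by total reads (1.10) and by total reads without the 50 most abundant genes (1.04). The liver form was called higher in liver in 7. Cox8a, listed for liver beside Cox8b, missed the size threshold narrowly (difference -0.96, limma adjusted p = 0.00274). It was called higher in liver when heart 2, heart 3, heart 5 or liver 5 was left out (-1.01 to -1.12). Both calls together held for 6 pairs. The glucose carriers Slc2a4 and Slc2a2 stood at 8.47 and -9.04, the pyruvate kinases Pkm and Pklr at 5.45 and -7.76, and the glycogen synthases Gys1 and Gys2 at 4.64 and -6.64. The adenine nucleotide carriers Slc25a4 and Slc25a5, the glycogen-targeting subunits Ppp1r3a and Ppp1r3b, and Cpt1b and Cpt1a were the other 3. In 3 pairs the form listed for liver was itself higher in heart: Ldha (2.41, beside 5.59 for Ldhb), Cox7a2 (2.35, beside 7.67 for Cox7a1) and Pgam1 (3.03, beside 6.25 for Pgam2). For Ldha the values were 27142, 30477, 34029, 21856 and 28884 in heart and 6501, 5107, 6823, 5465 and 3337 in liver. Fbp2, the muscle fructose bisphosphatase, whose liver partner was not in the tables, had 362, 303, 401, 218 and 223 in heart and 2 reads over all 5 livers, a ratio of 693 (exact Poisson 95% interval 192 to 5726).

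Glycogen phosphorylase, which releases glucose units from glycogen, is given here in full. Pygm, the muscle form, had 17796, 21432, 21088, 16812 and 21629 in heart and 64.6, 71.0, 40.0, 38.1 and 54.3 in liver (difference 8.53, SE 0.18, adjusted p = 7.5e-13). Pygl, the liver form, had 55654, 47301, 48642, 81116 and 50420 in the livers and 73359.5, 28717, 26446, 10021 and 37991 in the hearts. The first heart exceeded 4 of the 5 livers, the fourth heart was the lowest library, and the groups overlapped. Pygl was not called (difference -0.93, SE 0.41, adjusted p = 0.0592). Without the first heart the difference was -1.25 (adjusted p = 0.00836) and Pygl was called higher in liver, as it was on the deposited values centred on each library's median (-1.08, adjusted p = 0.0287). Fitted over all species, heart minus liver of Pygl was -0.93 in Damaraland mole-rat, -7.06 in mouse, -5.99 in guinea pig and -0.83 in naked mole-rat. The Damaraland difference was 3.70 more positive than the mean of the other 3 (SE 0.41, adjusted p = 3.88e-08), and that of the naked mole-rat was close to it.

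**Figure D4:**
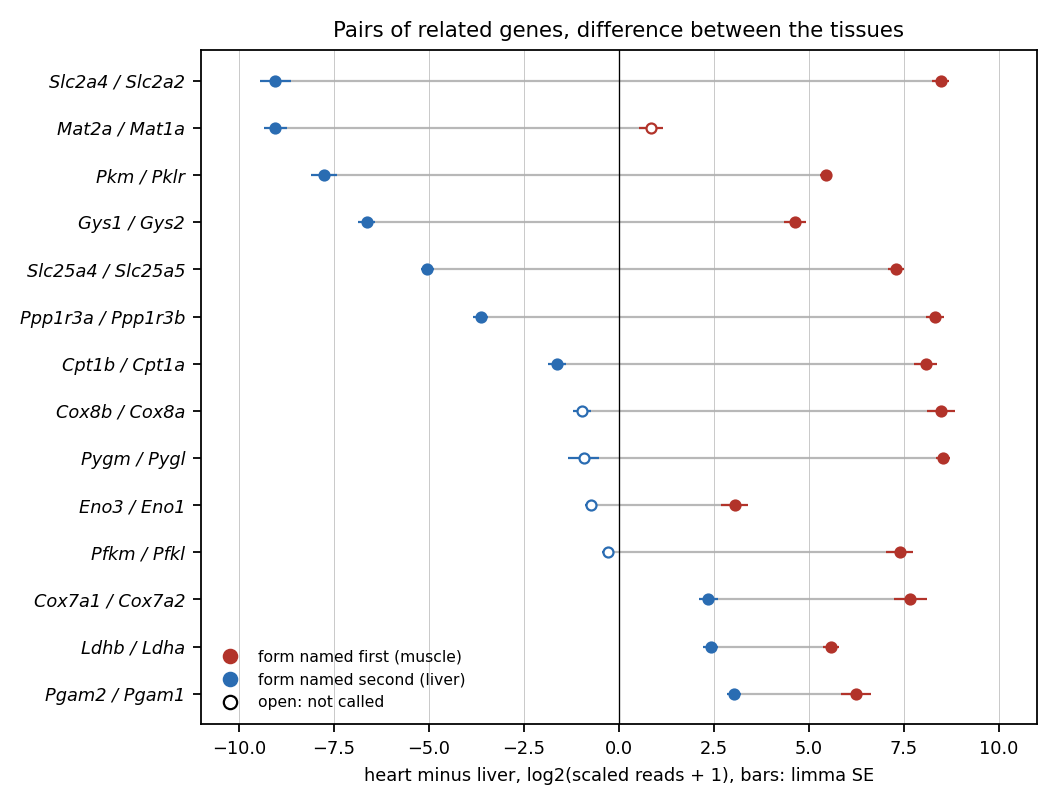
Heart minus liver on the log2(scaled reads + 1) scale for 14 pairs of related genes, the form listed as muscle-type in red and the form listed as liver-type in blue, with limma standard errors as bars and open circles for genes not called. The red point lies to the right of the blue one in all 14 pairs, and the blue points of Cox7a2, Ldha and Pgam1 lie to the right of 0 and are called.

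Markers of other cell types were read beside the 23.6% of all genes higher in heart and the 24.1% higher in liver. Endothelial markers had 3 of 9 genes higher in heart and none in liver, a share near the background in so short a list. The 3 were Vwf (2.92), Pecam1 (1.84) and Tek (1.73), and the list had a sum of 12732 to 19483 in heart and 6966 to 7942 in liver. Markers of liver sinusoids had 4 of 5 genes higher in liver, led by the lectin Clec4g (-7.51) and the scavenger receptor Stab2 (-6.37). All 7 fibroblast and stellate markers tested and all 6 of smooth muscle and pericytes were higher in heart. The fibroblast sum was 15610 to 49714 in heart and 3166 to 6177 in liver, and the fifth heart was the highest, with 21641 scaled reads of Col3a1 against 3846 to 5388 in the other 4 hearts. Macrophage markers moved in opposite directions. Cd163, a haemoglobin scavenger receptor, had 315, 345, 589, 603 and 1314 in heart and 3.9, 14.8, 3.3, 7.4 and 3.5 in liver, while Cd5l had 653, 206, 87.4, 165 and 138 in liver and 0.84, 0.85, 0, 1.8 and 13.8 in heart, and Cd68 differed by -5.86. The other 4 listed Kupffer cell markers (Clec4f, Vsig4, Marco and Timd4) were not among the genes of the tables. Plin1, which coats the lipid droplets of fat cells, had 3547, 646, 3416, 1330.0 and 739.8 in liver and 20.2, 6.8, 13.2, 4.5 and 48.9 in heart (difference -6.70, SE 0.61, adjusted p = 2.86e-07). Of the 5 fat cell markers, Plin1 alone was higher in liver, and 3 were higher in heart, Fabp4 (5.83), Cidec (5.31) and Lep (3.43). Lep had 40.4, 0, 40.1, 0 and 188 in heart, overlapping the livers, and Adipoq was not called (-0.48). Of the skeletal muscle markers, Acta1 and Myh4 were higher in heart, Mylpf was not called, and Tnnt3, Myh1 and Myh2 had too few reads to be tested. Among the remaining lists, leukocyte markers had 1 of 4 genes higher in each tissue, near the share of all genes, bile duct markers 2 of 5 higher in liver, Schwann cell markers 2 of 4 and mesothelial markers 2 of 3 higher in heart, and the erythroid marker Alas2 was not called. The part of these cell types in the differences of single genes was not tested.

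A few genes with a mean of at least 1000 scaled reads varied widely among the livers. Cyp2e1, a cytochrome that oxidises ethanol and small solvents, had 306, 173, 384, 37829 and 40326 scaled reads in the 5 livers and 107, 247, 62.7, 144 and 148 in the 5 hearts. The 3 low livers are those labelled 36 months and the 2 high ones those labelled 48 months, of which the fourth is the female, and the lowest liver lay within the range of the hearts. The third liver comes from the animal whose heart library is labelled 48 months. Age and sex were not tested. Cyp2e1 was called (difference -3.94, SE 1.39, adjusted p = 0.0217), but the call was lost without the fourth liver (-2.88, adjusted p = 0.0558) or without the fifth (-2.86, adjusted p = 0.0515), and with the replicate block by animal (-2.92, adjusted p = 0.0709), a fit that leaves out the fourth heart and the fourth liver, whose animals gave 1 tissue each. Related cytochromes can share its reads. Slc13a4, a sulfate carrier, had 2525, 25.4, 40.0, 32.0 and 2644 in liver, with the first and the fifth liver high, and 39.5, 57.1, 70.2, 126 and 52.0 in heart, and was not called (difference -1.55, SE 1.23, adjusted p = 0.275). Hpgd, which inactivates prostaglandins, had 4658, 3161, 4229, 2085 and 265 in liver, where the fifth liver was lowest, against 5.0, 2.6, 5.6, 2.7 and 26.0 in heart (difference -8.23, SE 0.73, adjusted p = 2.29e-07). Atf5, a stress-related transcription factor, had 44242, 6896, 16956, 11802 and 3453, and Abcc3, an exporter of conjugates into blood, had 647, 1409, 1183, 3404 and 7409, with the hearts at 108, 86.1, 93.4, 95.1 and 93.2 and 112, 126, 119, 138 and 118. Both were called higher in liver, with every liver above every heart.

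Among hearts, at the same limit of 1000 scaled reads, the widest spread after Nppa was that of Myh7b, a slow-type myosin heavy chain, with 1366, 3815, 2234, 19956 and 3458, the fourth heart standing above the others, against 5.2, 17.0, 7.4, 2.5 and 14.2 in liver (difference 8.78, SE 0.62, adjusted p = 1.93e-08). Acta1, skeletal actin, had 3209.5, 19253, 2643, 4386 and 1844, with the second heart highest, and 172, 139.9, 107, 197 and 83.8 in liver (difference 4.97, SE 0.50, adjusted p = 7.36e-07). Ptn, the growth factor pleiotrophin, had 391, 644, 833, 281 and 3369, with the fifth heart highest, and 24.6, 17.0, 35.1, 12.3 and 18.9 in liver (difference 5.09, SE 0.54, adjusted p = 1.29e-06). Cox7b, a complex IV subunit, had 4240.4, 1211, 1240.5, 872 and 272 in heart and 572, 939, 929.5, 1047 and 724 in liver, with the first heart above and the fifth below all livers, and was not called (difference 0.40, SE 0.52, adjusted p = 0.505; -0.09 without the first heart). Heart and liver of the same animal deviated together no more than those of different animals. Across genes, the correlation of deviations from the tissue mean was -0.287 to 0.127 for the 4 same-animal pairs (mean -0.004) and -0.239 to 0.427 for the 21 other pairs (mean 0.004), and for 1 of the 4 hearts the best matching liver was its own.

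The tissue difference of the Damaraland mole-rat was then set against the mean of the differences in naked mole-rat, guinea pig and mouse. Of 8806 genes with at least 50 scaled reads in heart or liver of every species, 2502 (28.4%) departed at an adjusted p under 0.05 and a size of at least 1, 1198 (13.6%) toward heart and 1304 (14.8%) toward liver. In 2079 of them the Damaraland difference lay outside the range of the other 3 species. Without the threshold on size the count was 4348, and 922 passed when the test itself was made against a departure of 1. Species means and differences below are scaled over all 28 libraries, and values of single Damaraland libraries keep the scale used above.

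Marc1, a mitochondrial molybdenum enzyme that reduces N-hydroxylated compounds, had the largest departure toward heart among genes outside the range of the other species with at least 1000 scaled reads in a Damaraland tissue (departure 6.52, SE 0.23, adjusted p = 1.3e-17). Its heart minus liver was -0.52 in Damaraland mole-rat, -10.54 in mouse, -8.54 in guinea pig and -2.04 in naked mole-rat. The Damaraland hearts had 2105, 2127, 2571, 1698 and 1731 scaled reads and the livers 2849, 3239, 2761, 3194 and 2501, and the gene was not called between the Damaraland tissues, where guinea pig and mouse had a mean of 17.9 and 5.3 in heart. Marc1 has a close neighbouring relative, Marc2, and reads may be split between them. Dmxl2, a partner of the vacuolar proton pump, departed by 6.37, with 6.81 in Damaraland mole-rat, -0.33 in mouse, -0.76 in guinea pig and 2.41 in naked mole-rat. In Damaraland liver it had 16.8, 10.6, 10.6, 8.6 and 13.0, and the liver means were 165 for naked mole-rat, 214 for guinea pig and 957 for mouse. Tpm3, a tropomyosin, departed by 5.51 and had 14314, 38013, 27024, 27224 and 26068 in Damaraland heart, against means of 1614, 988 and 823 in the hearts of naked mole-rat, guinea pig and mouse. It shares long stretches with Tpm1, so its reads are uncertain. Clcn2, a chloride channel, departed by 5.67 (4.36 in Damaraland mole-rat, -4.82 in mouse, 0.20 in guinea pig and 0.69 in naked mole-rat). B4galnt3, a glycosyltransferase, departed by 6.22, and here the mouse alone was on the liver side (8.94 in Damaraland mole-rat, -5.09 in mouse, 6.23 in guinea pig and 7.03 in naked mole-rat). Cyp2e1 departed by 5.69 (SE 1.36, adjusted p = 0.00109), with the livers split as above.

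Toward liver, Epdr1, a secreted lipid-binding protein, had the largest departure within the same limits (-9.17, SE 0.42, adjusted p = 2.81e-15). It was called higher in liver between the Damaraland tissues, and its heart minus liver was positive in the other 3 species (-1.98 in Damaraland mole-rat, 6.23 in mouse, 6.85 in guinea pig and 8.51 in naked mole-rat). The Damaraland livers had 1407, 1313, 1344, 1269.8 and 904 scaled reads, and the other species had liver means of 0.22 (naked mole-rat), 7.1 (guinea pig) and 6.3 (mouse), while heart means ran from 341 to 785 over the 4 species. Kif26a, a kinesin-family protein without motor activity, departed by -5.25 and had the same signs (-2.57 in Damaraland mole-rat, 3.80 in mouse, 2.15 in guinea pig and 2.07 in naked mole-rat), with 3778, 4186, 4886, 3755 and 5112 in Damaraland liver. Mlf1 departed by -5.58 and stayed higher in heart (1.73 in Damaraland mole-rat, 7.88 in mouse, 7.95 in guinea pig and 6.10 in naked mole-rat). Gpc3, a glypican of the cell surface, departed by -5.56, with 3432, 2861, 3492, 3278 and 2259 in Damaraland liver and 37.0, 36.7, 47.7, 44.8 and 177 in heart, where the fifth heart was highest. Pon3, a lactonase carried on high-density lipoprotein, departed by -5.34 (-7.46 in Damaraland mole-rat, -2.07 in mouse, -2.61 in guinea pig and -1.71 in naked mole-rat), and belongs to a family of similar genes. Spata13, an exchange factor for small GTPases, departed by -5.16 (-5.48 in Damaraland mole-rat, -1.31 in mouse, -1.68 in guinea pig and 2.05 in naked mole-rat).

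**Figure D5:**
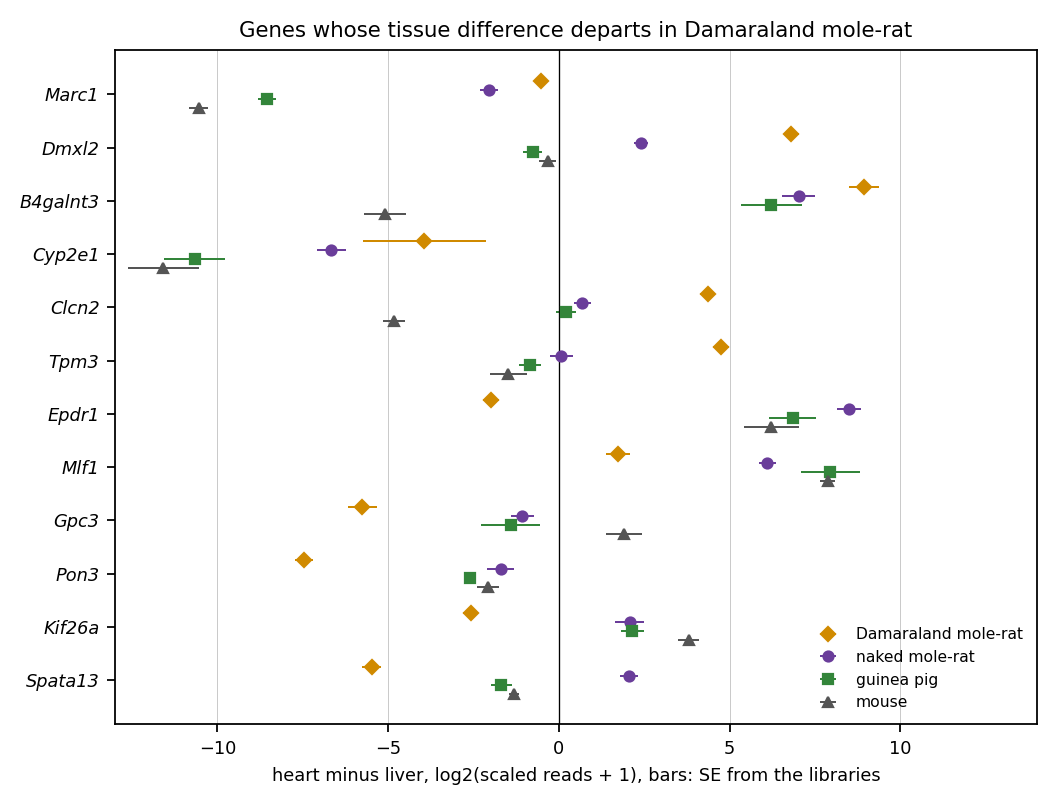
Heart minus liver on the log2(scaled reads + 1) scale in 4 species for the 6 genes with the largest departure of the Damaraland mole-rat (orange diamonds) toward heart and the 6 toward liver, among genes outside the range of the other species with at least 1000 scaled reads in a Damaraland tissue, with standard errors from the libraries as bars. For Epdr1 and Kif26a the Damaraland point lies left of 0 and the other 3 species lie right of it, and the Cyp2e1 bar is the widest among the Damaraland points.

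Genes described above from the lists departed in several cases. Nuclear oxidative phosphorylation genes had 21 of 76 toward heart and 1 toward liver, against 13.6% and 14.8% of all genes tested, with a median departure of 0.54. The mitochondrially encoded genes had none toward heart and 3 of 8 toward liver (median -1.21), with the few Damaraland reads given above. Complement and coagulation genes had 7 of 29 toward heart and none toward liver (median 0.43); the urea cycle list had 5 of 10 toward heart and none toward liver (median 0.95). The sarcomere list had 3 toward heart and 2 toward liver of 17, the plasma proteins none and 1 of 19, and the apolipoproteins none and 3 of 16. Hearts of the naked mole-rat held reads of hepatocyte genes, a mean of 20418 for Alb (livers 2339550) and 1268 for Cps1 (livers 101848). Heart minus liver of Cps1 was -6.48 there, against -10.15 (guinea pig), -10.68 (mouse) and -8.01 (Damaraland). For Alb, Ttr, Fgb and Tat the naked mole-rat was likewise the least negative of all species, but not for Apoa1. The part of these levels in the departures of the liver gene lists was not tested. Cyp7b1, called higher in Damaraland heart and below the limit of 1000 scaled reads, had negative values in the other species (2.00 in Damaraland mole-rat, -9.18 in mouse, -0.48 in guinea pig and -7.00 in naked mole-rat), a departure of 7.55 (SE 0.36, adjusted p = 4.65e-15). Acacb departed by 4.72 (7.51 in Damaraland mole-rat, 1.36 in mouse, 6.84 in guinea pig and 0.16 in naked mole-rat) and Tnnt1 by 5.12 (9.38 in Damaraland mole-rat, 3.31 in mouse, 2.54 in guinea pig and 6.95 in naked mole-rat). Hk2 departed toward heart by 3.99, with the mouse close to the Damaraland value (7.62 in Damaraland mole-rat, 7.34 in mouse, 2.03 in guinea pig and 1.52 in naked mole-rat). Ldha departed toward heart by 2.99 (2.41 in Damaraland mole-rat, -0.53 in mouse, 0.41 in guinea pig and -1.62 in naked mole-rat). Slc25a5 departed toward liver by -3.63 (-5.04 in Damaraland mole-rat, -0.75 in mouse, -1.31 in guinea pig and -2.19 in naked mole-rat), as did Eno3 (-4.09) and Vldlr (-3.71). Fbp2 departed by 5.29, but its Damaraland value lay within the range of the other species. The guinea pig alone was on the liver side (7.85 in Damaraland mole-rat, 7.36 in mouse, -9.59 in guinea pig and 9.91 in naked mole-rat). Fbp1, a relative of Fbp2, was not in the tables, and Fbp2 may hold reads of it.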

How the data were processed

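Total RNA depleted of ribosomal RNA was sequenced from 14 hearts and 14 livers of 4 species, per the labels' protocols. The authors deposited 1 table a tissue of variance-stabilised log2 values for 13928 mouse gene identifiers (13921 matched to a symbol), and the submitters' processing notes name Salmon 013.1, cutadapt, DESeq2 and GRCm38. How genes were assigned across species is not given in the sources used here. The 26 columns of no sample in the labels were not used.

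The tables were transformed separately, so their values cannot be set against each other. The transform was inverted and divided by the step of 1 read in each library, which gave whole reads for 100% of values (tolerance 1e-05). Depth was 8551766 to 22024715 reads in Damaraland heart and 11704633 to 18044619 in liver. Reads were divided by median-of-ratios factors, a pseudocount of 1 was added on the log2 scale and limma 3.58.1 (R 4.3.3) with a variance trend was fitted, two-sided, with Benjamini-Hochberg adjustment over all genes tested. The heart against liver fit used the 10 Damaraland libraries. The departure fit used all 28, with tissue differences taken within species, where the length of a gene model cancels unless the tissues use different transcripts. Both were run on simulated reads with fewer and smaller changes than the tissues show here and the same setting of spread for all genes. That run does not cover differences as wide and as many as these. Folds come from the difference of means on the log2(scaled reads + 1) scale and are not ratios of mean scaled reads. The pseudocount lowers them for genes with few reads. A wide spread in the lower tissue can raise them above the ratio of means, as for Apoc1. Intervals cover counting error only.

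Animal names, not replicate numbers, pair the libraries. Deviations of same-animal pairs had correlations of -0.287 to 0.127, and a block by animal was an alternative, beside other scalings, filters, pseudocounts, variance models and thresholds and the omission of each library. The members, gene lists and named genes were chosen with earlier results of these data known. Named genes are, by rule, the 10 with the widest difference in each direction, with at least 1000 scaled reads in the higher tissue and no overlap between tissues. They also take from each list the 3 called members with the widest difference and the widest against the list, all pairs reported, the 6 widest departures in each direction outside the range of the other species, with at least 1000 scaled reads in a Damaraland tissue, and the 5 most variable genes of each tissue, with a mean of at least 1000 scaled reads there. Other members of the lists were named after their values were seen. Some genes that this rule takes are not reported here, and neither are their pairs. Counts over lists and over all genes include them.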

Additional observations from a re-analysis of the deposited data

Results flagged for a closer look

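Within single tissues, 24 of 284 groups of 5 libraries tested, over the named genes, had a library whose gap to its neighbour took an unusually large part of the group's range by Dixon's criterion, which chance alone passes in about 1 of 20 groups. Values here are log2(scaled reads + 1). The fifth liver was the library in 9 of the 24. The fifth liver was lowest for Cox6a1 (10.88, others 11.60 to 11.87), Cox7a1 (1.75, others 3.64 to 4.25), Eno1 (12.51, others 12.96 to 13.11), Epdr1 (9.82, others 10.31 to 10.46), Hpgd (8.06, others 11.03 to 12.19), P4hb (14.49, others 15.07 to 15.24) and Pgam1 (10.76, others 11.29 to 11.36) and highest for Gys1 (7.78, others 6.17 to 6.46) and Uroc1 (13.96, others 13.71 to 13.78). The fourth liver was lowest for Elovl6 (13.43, others 14.34 to 14.65) and highest for C8a (13.65, others 12.64 to 12.79) and Spata13 (10.35, others 9.86 to 9.98). The first liver was lowest for Mat2a (8.13, others 9.24 to 9.65) and highest for Pfkfb1 (11.27, others 10.83 to 10.94). The fifth heart was lowest for Clcn2 (10.03, others 10.51 to 10.61), Cox7a2 (10.99, others 12.23 to 12.61) and Rps27l (6.58, others 8.07 to 8.36) and highest for Gpc3 (7.48, others 5.23 to 5.60). The fourth heart was lowest for Pln (15.28, others 16.01 to 16.26) and Pon3 (4.98, others 5.92 to 6.15) and highest for Mybpc3 (15.86, others 14.82 to 15.00). The second heart was highest for Foxa2 (0.89, others at 0) and Mat1a (6.86, others 5.01 to 5.50). The first heart was lowest for Pfkm (14.30, others 14.95 to 15.19).

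Heart minus liver in the Damaraland mole-rat differed from the mean of the other species, by limma's test of the difference itself and at an adjusted p under 0.05, for the 12 genes named above. These genes were picked as the largest among those already called by this test, so that they pass it was fixed by the choice. The departures toward heart were Marc1 (6.52), Dmxl2 (6.37), B4galnt3 (6.22), Cyp2e1 (5.69), Clcn2 (5.67) and Tpm3 (5.51), and those toward liver were Epdr1 (-9.17), Mlf1 (-5.58), Gpc3 (-5.56), Pon3 (-5.34), Kif26a (-5.25) and Spata13 (-5.16). For B4galnt3 the mouse was the only one of the other 3 species with a negative value, and for Cyp2e1 3 of the 5 Damaraland livers had few reads.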

How the results depend on the processing

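The count of genes called between heart and liver was 3692 to 7878 over all alternatives and stayed within 1.5 times of 5429, including 5432 with the replicate block by animal and 5326 to 5456 when each library was left out in turn (2637 to 2710 higher in heart, 2680 to 2775 higher in liver). The count of departing genes was 2507 with the block and 2403 to 2597 without single libraries (1141 to 1256 toward heart, 1262 to 1365 toward liver). It moved to 4444 (1962 and 2482) without the filter on low values, to 4348 (2157 and 2191) without the threshold on size, and to 922 (424 and 498) when tested against a difference of 1. Of the 138 named genes 10 changed in call or in sign under at least 1 alternative, and the 12 named departures in none. The Cox7b difference changed sign without the first heart (-0.088, not called in either case), in a range of -0.088 to 0.91 when each library was left out. The block, fitted on the 8 libraries of the 4 animals with both tissues, changed 3 calls of named genes, of which Cyp2e1 and Rpl41 are given above, and no other, and these 3 also changed in the same 8 libraries without it. The cause of these changes was not tested, beyond the fewer or more genes and libraries that an alternative itself uses. Genes with few reads in the lower tissue have differences set partly by the pseudocount.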
